A study of Homo sapiens with 18 samples.

Results

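The genes described here are the cholesterol and fatty acid synthesis genes, 34 genes chosen by symbol and matched to the Ensembl identifiers of the count tables, out of 62703 genes counted in each library. They comprise 5 regulators, 7 mevalonate enzymes, 11 sterol enzymes, 7 fatty acid enzymes and 4 genes of sterol transport, uptake control and lipid phosphatase activity. The study used a gapmeR, a short antisense oligonucleotide that makes the cell cut its target RNA, against NEAT1, a nuclear long non-coding RNA that builds paraspeckles. The gapmeR entered the cells by gymnosis (unassisted uptake), and total RNA was sequenced at 48 h from 3 established human multiple myeloma lines, AMO1, H929 (NCI-H929 in the design text) and LP1. Each line had 3 libraries labelled gN1E, for the NEAT1 gapmeR, and 3 labelled SCR, for the control gapmeR. The replicate letters were A, C and D in AMO1, A, B and C in H929, and A, B and D in LP1. Nothing in the labels says that libraries of a group came from separate cultures, so the p-values measure the spread between these libraries, which may be technical.

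The libraries held between 28061606 and 69937229 counted reads. In AMO1 the SCR libraries held 53227560 to 66142827 reads and the gN1E libraries 28061606 to 49784737, so depth moved with the label in this line and its part in the AMO1 results was not tested. In H929 the ranges were 34710995 to 54387667 (SCR) and 52856172 to 59302536 (gN1E), and in LP1 they were 56542997 to 69937229 (SCR) and 44091209 to 57247024 (gN1E), with overlap in both lines. All 34 genes had enough reads to be tested in each line. Levels are given as CPM, counts relative to library size after TMM scaling over the 6 libraries of a line. Cell type markers, and levels compared between lines, were scaled over all 18 libraries instead. A gene's CPM can therefore differ between these scalings.

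NEAT1 itself was read first, as a check of the labels. In AMO1 its level was 78.8, 81.7 and 94.6 CPM in SCR libraries A, C and D and 493, 576 and 539 CPM in the gN1E libraries. In H929 it was 84.3, 75.9 and 83.5 CPM in SCR libraries A, B and C and 581, 482 and 564 CPM in the gN1E libraries, and in LP1 it was 122, 157 and 174 CPM in SCR libraries A, B and D and 605, 613 and 771 CPM in the gN1E libraries. Every library labelled gN1E was above every library labelled SCR of its line, the opposite of what a knock-down label describes. The log2 fold change (gN1E label minus SCR label) was 2.66 in AMO1, 2.74 in H929 and 2.14 in LP1 (edgeR adjusted p = 5.1e-13, 3.11e-14 and 0.0269). The header of the count table named the other gapmer in 18 of 18 libraries, and exchanged H929 with LP1 in 12 of 18 libraries. Under the header names, the gN1E libraries of each line would be those with less NEAT1. Which of the names holds was not tested, so libraries are called here by their labels, and a gene "higher in gN1E" was higher in the libraries where NEAT1 was higher. The names H929 and LP1 carry the same doubt wherever these lines are compared.

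Cell type markers were read next. The 9 plasma cell markers summed to 15761 to 18217 CPM in AMO1, 17934 to 21294 CPM in H929 and 11212 to 12022 CPM in LP1, with SDC1 the most abundant in AMO1 and H929 and JCHAIN in LP1. SDC1 had medians of 10560, 12787 and 1261 CPM in AMO1, H929 and LP1, and CD38 was also lowest in LP1. TNFRSF17, PRDM1, XBP1, IRF4, MZB1, JCHAIN and SLAMF7 each had their highest median in LP1, so the lower LP1 sum does not hold for most markers. In H929 these sums were 18918, 18778 and 17934 CPM in the SCR libraries and 20086, 21197 and 21294 CPM in the gN1E libraries, so they moved with the label there, and their part in the H929 results was not tested. SDC1 alone ranged from 11514 to 14346 CPM over the H929 libraries. The 3 B cell markers summed to at most 1.66 CPM, the 3 monocyte markers to at most 9.56 CPM (mainly CSF1R in LP1) and the 3 stroma markers to at most 2.93 CPM. Of the 3 T cell markers, CD3E reached 24.9 CPM, while CD3D and CD2 had at most 2 reads in any library. In LP1 the monocyte sums were 8.79, 9.56 and 6.94 CPM in SCR libraries A, B and D and 3.52, 4.76 and 6.10 CPM in the gN1E libraries, and the T cell sums were 13.9, 15.1 and 14.4 CPM and 10.1, 12.1 and 13.7 CPM. Both moved with the label there without overlap, as did the B cell sums of AMO1, all under 0.180 CPM. Within replicate letters A, C and D of AMO1 other sums moved too, although the labels overlapped. Plasma cell sums rose from 18015, 15891 and 15761 CPM (SCR) to 18217, 17641 and 17117.5 CPM (gN1E). T cell sums fell from 23.39, 22.04 and 24.86 CPM to 22.16, 17.88 and 20.82 CPM. Monocyte sums, at most 0.545 CPM, also fell in each letter. The part of all these shifts in the results of these lines was not tested. A lower level in such bulk samples can come from fewer cells with the RNA or from less RNA per cell, and these cannot be told apart.

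Cholesterol is built from acetyl-CoA through mevalonate, farnesyl diphosphate, squalene and lanosterol, and the mevalonate branch also feeds protein prenylation. Transcription of the enzymes, and of those for fatty acids, is driven by SREBP factors, which the escort protein SCAP carries from the endoplasmic reticulum to the Golgi, where they are cut and released; when sterols are abundant, the membrane proteins INSIG1 and INSIG2 hold SCAP back. INSIG1 is itself an SREBP target, so its RNA usually follows SREBP activity, whereas INSIG2 is regulated differently, and myeloma cells depend on the mevalonate branch for prenylation.

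To describe levels by line, reads were scaled over all 18 libraries and divided by exon length, as CPM per kb, because only a value per length can be set between genes. SCD, the desaturase that makes oleate, had the highest median level of the 34 genes in every line, with 182 CPM per kb in AMO1 (range 151 to 198 over 6 libraries), 266 in H929 (251 to 274) and 166 in LP1 (158 to 183). INSIG1 had the second place in AMO1 and H929, with medians of 123 and 144 CPM per kb, and place 7 in LP1, with 36.8. INSIG2 was among the low members, at 5.49 CPM per kb in AMO1 (3.48 to 7.96), 4.53 in H929 (3.47 to 5.72) and 8.61 in LP1 (7.20 to 11.1), places 28, 30 and 22. INSIG2 thus lay far under INSIG1 in all 3 lines, with no overlap of the library values. SREBF2, which encodes the SREBP of the sterol genes, had medians of 60.8, 64.6 and 43.2 CPM per kb in AMO1, H929 and LP1 (places 7, 8 and 6), and SREBF1, which encodes the SREBP of the fatty acid genes, had 20.6, 27.3 and 35.9 (places 17, 14 and 8). SCAP had 21.9, 22.5 and 20.4 CPM per kb.

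**Figure D1:**
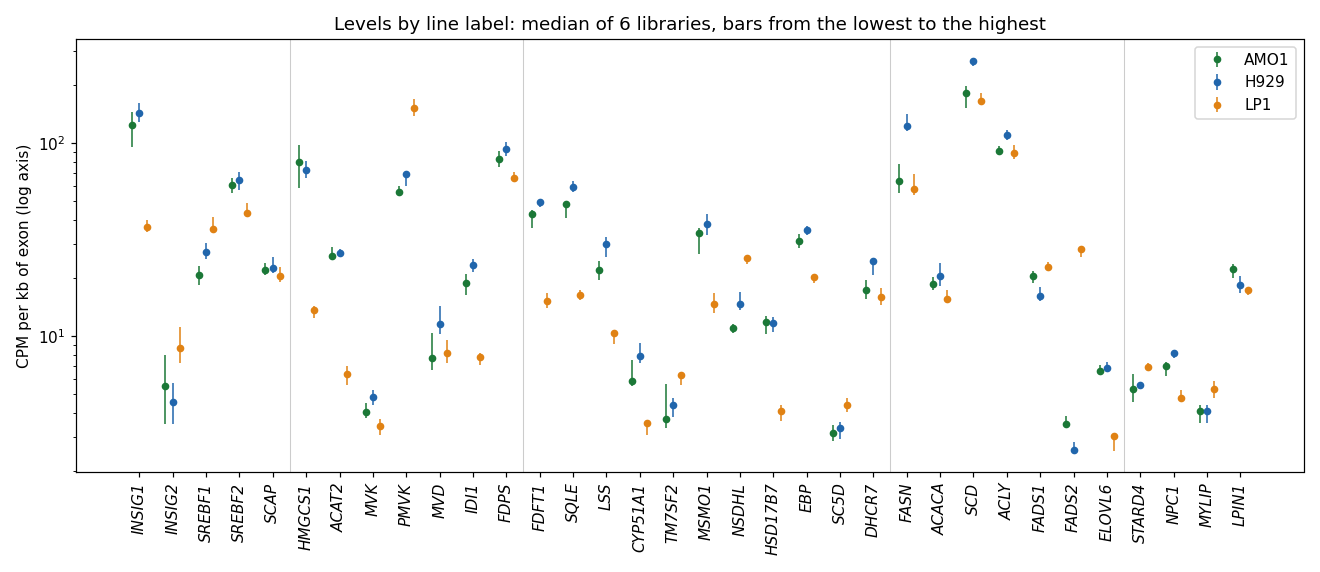
Level of each of the 34 genes in the 3 lines, as CPM per kb of exon on a log axis, with points for the median of 6 libraries, bars from the lowest to the highest, and the genes ordered by role. SCD is at the top in each line (median 182, 266 and 166 CPM per kb), and FADS2 stands in LP1 at 28.1 against 3.49 in AMO1 and 2.57 in H929.

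Between AMO1 and H929 no member passed a 2-fold difference, although 27 of 34 members, and 21 of the 25 enzymes, were lower in AMO1, with medians of -0.21 and -0.24 on the log2 scale. The median over all 26436 genes tested was 0. At an edgeR adjusted p under 0.05 with no fold minimum, 21 members were lower and 4 higher in AMO1, against 6138 and 5593 of all genes. A level was called different when the mean over both labels differed by at least 2-fold at an adjusted p under 0.05 in the edgeR fit of 18 libraries. Between AMO1 and H929, 0 of 34 members were called so, against 10.2% of the 26436 genes tested (3.06% higher and 7.15% lower in AMO1). An unadjusted p under 0.05 was found for 25 of the 34 members and 13252 of the 26436 genes. DESeq2 and limma-voom also called 0 members, against 2683 and 2721 of all genes. The nearest was FASN, fatty acid synthase, at 515 to 723 CPM in AMO1 and 1075 to 1315 CPM in H929, a difference of -0.97 (SE 0.0792) on the log2 scale, 1.95-fold higher in H929 (edgeR adjusted p = 9.49e-08). FASN did pass the 2-fold minimum when only libraries labelled gN1E were used (-1.10), or without SCR replicate A of AMO1 (-1.02), gN1E replicate A of AMO1 (-1.02) or, just so, gN1E replicate A of H929.

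Between AMO1 and LP1, 13 of 34 members (38.2%) were called, 10 higher and 3 lower in AMO1, against 41.5% of all genes (21.1% higher and 20.3% lower). Between H929 and LP1, 14 members (41.2%) were called, 12 higher and 2 lower in H929, against 38.1% of all genes (20.4% higher and 17.7% lower). The total shares were thus near those of all genes, while most of the called members lay on the side of higher levels in AMO1 and H929. Scaling by library size alone shifted the median of all genes by 0.18 in AMO1 against LP1 and by 0.19 in H929 against LP1 on the log2 scale, in the direction of lower LP1 levels, and still called 13 and 14 members, with EBP entering and PMVK leaving in the second comparison.

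The genes higher in AMO1 than in LP1 were INSIG1, ACAT2, HMGCS1, IDI1, FDFT1, SQLE, LSS, MSMO1, HSD17B7 and ELOVL6, and the same 10 were higher in H929, joined there by CYP51A1 and FASN. FASN fell under the 2-fold minimum in libraries labelled SCR (0.92), which left 13 members called between H929 and LP1. HMGCS1, which makes HMG-CoA for mevalonate, was measured at 387 to 650 CPM in AMO1 (median 526), 438 to 535 CPM in H929 (median 478) and 82.0 to 94.5 CPM in LP1 (median 90.04). Its 12 libraries of AMO1 and H929 were all far above LP1, by 2.57 (SE 0.0873) and 2.43 (SE 0.0868) on the log2 scale (edgeR adjusted p = 7.21e-13 and 1.49e-12). ACAT2, the thiolase that starts the branch, differed by 2.06 and 2.09 on the same scale, INSIG1 by 1.71 and 1.95, SQLE (squalene epoxidase) by 1.52 and 1.87, and FDFT1 (squalene synthase) by 1.45 and 1.70.

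Other members were higher in LP1. FADS2, a desaturase of polyunsaturated fatty acids, was at 35.4 to 40.4 CPM in AMO1, 26.3 to 29.7 CPM in H929 and 272 to 309 CPM in LP1. It was 7.82-fold higher in LP1 than in AMO1 and 10.6-fold higher than in H929 (log2 difference -2.97, SE 0.0431, and -3.41, SE 0.0440; edgeR adjusted p = 2.02e-34 and 1.28e-35). PMVK, phosphomevalonate kinase, was 2.68-fold and 2.24-fold higher in LP1, and NSDHL, a sterol dehydrogenase, 2.30-fold higher in LP1 than in AMO1. FADS1, the neighbouring desaturase gene on chromosome 11, was at 192 to 222 CPM in AMO1, 156 to 183 CPM in H929 and 221 to 246 CPM in LP1, with log2 differences of -0.16 and -0.47 from LP1, under the 2-fold minimum. INSIG2 was also higher in LP1, by 1.65-fold against AMO1 and 1.98-fold against H929 (log2 difference -0.72 and -0.98), again under 2-fold. Against H929 it passed 2-fold with DESeq2 (-1.03), without SCR replicate A of LP1 (-1.01) or of H929 (-1.03), without gN1E replicate A of LP1 (-1.03) and without gN1E replicate C of H929 (-1.03). SREBF1 (-0.85 from AMO1 and -0.43 from H929), TM7SF2 (-0.62 and -0.50), SC5D (-0.49 and -0.42), STARD4 (-0.37 and -0.32) and MYLIP (-0.39 and -0.40) also lay on the side of LP1, under 2-fold. The LP1 line thus held less INSIG1 RNA than the other lines. Its mean INSIG2 level was somewhat higher, under 2-fold, and overlapped with AMO1 (28.4 to 43.9 CPM in LP1, 13.7 to 31.4 CPM in AMO1).

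Promoter sequences were read for motifs known from SREBP targets, because many of these genes are such targets. RefSeq windows (GRCh38.p14) of 250 bases before to 50 bases after the start site were matched by symbol for 30 of the 34 members; ACAT2, FDFT1, SQLE and FASN had none. On both strands, TCACNCCAC (a sterol regulatory element core) was found in 1 of 30 members, SREBF2, and in 1.39% of 27305 genes with a window. CCAAT, the NF-Y motif, was found in 21 of 30 members and in 39.7% of genes, and GGGCGG, the SP1 motif, in 29 of 30 members (NSDHL had none) and in 48.3% of genes. These are matches of letters and not measured sites. Shown are the windows of the INSIG pair, which differ in CCAAT, of SREBF2, and of MVD and MSMO1, enzymes with called changes below; capitals mark the motif letters on either strand, GGGCGG also as CCGCCC and CCAAT also as ATTGG. The windows lie at chr2:118088221-118088520 (plus strand) for INSIG2, chr7:155297628-155297927 (plus) for INSIG1, chr22:41832855-41833154 (plus) for SREBF2, chr16:88663042-88663341 (minus) for MVD and chr4:165327419-165327718 (plus) for MSMO1, each written 5′ to 3′ on its gene's strand.
INSIG2: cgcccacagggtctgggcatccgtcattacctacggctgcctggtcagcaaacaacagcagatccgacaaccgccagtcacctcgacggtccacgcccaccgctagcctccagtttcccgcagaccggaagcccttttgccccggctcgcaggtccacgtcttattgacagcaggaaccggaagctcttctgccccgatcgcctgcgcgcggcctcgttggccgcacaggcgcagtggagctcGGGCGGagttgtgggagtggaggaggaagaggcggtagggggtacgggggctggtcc
INSIG1: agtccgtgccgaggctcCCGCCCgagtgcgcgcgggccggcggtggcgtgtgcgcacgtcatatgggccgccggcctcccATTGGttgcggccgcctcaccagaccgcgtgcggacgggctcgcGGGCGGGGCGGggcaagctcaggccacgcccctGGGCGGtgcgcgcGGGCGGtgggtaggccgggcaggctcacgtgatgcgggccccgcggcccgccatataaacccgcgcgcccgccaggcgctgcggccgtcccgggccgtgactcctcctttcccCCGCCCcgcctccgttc
SREBF2: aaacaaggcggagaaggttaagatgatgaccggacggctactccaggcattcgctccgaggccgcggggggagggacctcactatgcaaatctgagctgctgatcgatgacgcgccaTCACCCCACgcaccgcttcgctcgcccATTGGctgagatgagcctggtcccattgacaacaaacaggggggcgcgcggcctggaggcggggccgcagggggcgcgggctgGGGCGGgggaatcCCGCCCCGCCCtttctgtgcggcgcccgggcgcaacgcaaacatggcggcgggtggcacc
MVD: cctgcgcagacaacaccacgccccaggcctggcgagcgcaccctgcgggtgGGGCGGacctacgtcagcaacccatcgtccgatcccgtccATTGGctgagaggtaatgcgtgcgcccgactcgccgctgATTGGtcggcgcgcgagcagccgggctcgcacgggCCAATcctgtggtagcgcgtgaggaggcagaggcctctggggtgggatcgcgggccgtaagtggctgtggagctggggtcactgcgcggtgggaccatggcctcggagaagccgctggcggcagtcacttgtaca
MSMO1: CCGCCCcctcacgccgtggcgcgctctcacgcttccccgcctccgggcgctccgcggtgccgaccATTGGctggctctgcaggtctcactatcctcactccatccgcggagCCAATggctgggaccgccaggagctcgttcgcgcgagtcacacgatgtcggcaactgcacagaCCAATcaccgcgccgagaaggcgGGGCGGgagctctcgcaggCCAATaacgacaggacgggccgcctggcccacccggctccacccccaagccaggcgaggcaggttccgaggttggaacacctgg
INSIG2 held 1 GGGCGG and 0 CCAAT in this window, and the same in a second, overlapping RefSeq window. INSIG1 held 6 GGGCGG and 1 CCAAT, MVD 1 and 3, and MSMO1 2 and 4.

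The first question of the design was what changed between the gapmer labels in each line. INSIG2 was higher in the libraries labelled gN1E, those with more NEAT1, in all 3 lines, and it had the highest log2 fold change of the 34 members in each. INSIG2 (ENSG00000125629.16, chr2:118088452-118110997, plus strand, hg38) encodes the smaller of the sterol-dependent retention proteins. In AMO1 its level was 19.5, 18.9 and 14.3 CPM in SCR libraries A, C and D and 25.7, 32.7 and 25.7 CPM in gN1E libraries A, C and D. In H929 it was 18.4, 16.4 and 14.5 CPM in SCR libraries A, B and C and 20.5, 19.0 and 23.5 CPM in gN1E libraries A, B and C. In LP1 it was 25.7, 30.3 and 28.7 CPM in SCR libraries A, B and D and 31.9, 40.4 and 38.1 CPM in gN1E libraries A, B and D. In no line did the labels overlap, although in H929 the lowest gN1E library and the highest SCR library lay close together.

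The INSIG2 fold change was 0.67 on the log2 scale in AMO1 (SE 0.125, 1.59-fold, edgeR adjusted p = 0.0139), higher in 3 of 3 gN1E libraries. It was 0.35 in H929 (SE 0.0890, 1.27-fold, edgeR adjusted p = 0.0242) and 0.38 in LP1 (SE 0.0824, 1.30-fold, edgeR adjusted p = 0.0336), likewise with 3 of 3 gN1E libraries above all SCR libraries. INSIG2 was 1 of 62 genes called higher in all 3 lines, 0.311% of the 19934 genes tested in all of them; 6 genes (0.0301%) were called lower in all 3, none of them a member. In AMO1 the call held in all 16 alternatives (edgeR, DESeq2 or limma-voom adjusted p between 1.8e-12 and 0.0343), leaving out each library included. In H929 it was lost without SCR replicate C (edgeR adjusted p = 0.0829), without gN1E replicate C (0.0779), with scaling by library size alone (0.0576) and with the replicate block (0.072; 0.0659 with gene span as an offset too), over a range of 8.83e-05 to 0.0829. In LP1 it was lost without SCR replicate A (edgeR adjusted p = 0.125), SCR replicate D (0.105), gN1E replicate B (0.108) or gN1E replicate D (0.152), and just so among genes at a mean of at least 1 CPM (0.0529) or with gene span as an offset (0.052), over a range of 3.07e-06 to 0.152. The log2 fold change stayed above 0 throughout, between 0.26 and 0.44 in H929 and between 0.31 and 0.48 in LP1.

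INSIG1 (ENSG00000186480.13, chr7:155297776-155310235, plus strand), the partner whose gene SREBP induces, had no such pattern over the 3 lines. In AMO1 it was at 459, 438 and 364 CPM in SCR libraries A, C and D and 479.5, 552 and 511 CPM in the gN1E libraries. All gN1E libraries lay above all SCR libraries there, with SCR library D the lowest. The log2 fold change was 0.29 (SE 0.0792, edgeR adjusted p = 0.103). With the replicate letter as a block, which compares AMO1 libraries of the same letter, the edgeR adjusted p was 0.00944, over a range of 8.77e-05 to 0.301 among the alternatives. With the block and gene span as an offset INSIG1 was not called in AMO1. In H929 INSIG1 was at 595, 558 and 510.2 CPM in the SCR libraries and 493, 532 and 611 CPM in the gN1E libraries, and in LP1 at 131, 133 and 117 CPM and 119.8, 119.9 and 129 CPM, with overlap in both lines and log2 fold changes of -0.024 and -0.047. Set against INSIG1 per kb, INSIG2 made up 3.70% ± 0.175 of the summed INSIG level in the SCR libraries of AMO1 and 4.79% ± 0.379 in the gN1E libraries (SD, n = 3 each). The share was 2.66% ± 0.115 and 3.44% ± 0.250 in H929, and 17.1% ± 1.62 and 21.7% ± 2.01 in LP1. In each line every gN1E library had a higher INSIG2 share than every SCR library, and INSIG1 remained the main INSIG RNA.

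The remaining regulators were not called in any line. SREBF2 in H929 was at 501, 501 and 454 CPM in SCR libraries A, B and C and 520.4, 546 and 558 CPM in the gN1E libraries, without overlap (log2 fold change 0.16, SE 0.0507, edgeR adjusted p = 0.0677). In AMO1 it had a log2 fold change of 0.12 and in LP1 of -0.079. SREBF1 had -0.073, 0.093 and -0.11 in AMO1, H929 and LP1, and SCAP -0.046, 0.11 and -0.048, all with overlapping labels.

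Counted over all 34 members, few genes passed the test in any line. In AMO1, 1 member was called, INSIG2, against 2.06% of the 22933 genes tested (1.64% higher and 0.419% lower). In H929, 5 members were called, INSIG2, ACACA and LPIN1 higher and IDI1 and MSMO1 lower in gN1E, against 5.47% of 23499 genes (3.7% higher and 1.77% lower). In LP1, 2 members were called, INSIG2 higher and MVD lower, against 1.43% of 23165 genes (0.656% higher and 0.777% lower). As shares of the members these were 2.94%, 14.7% and 5.88%. Since members were more abundant than most genes, the shares among genes at a mean of at least 1 CPM also serve as background: 3.06%, 8.15% and 1.87%. These came from a separate fit of such genes, in which 1, 7 and 1 of the 34 members were called in AMO1, H929 and LP1.

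The counts moved with the processing. Under an adjusted p of 0.1 together with a 1.5-fold minimum, INSIG2 in AMO1 was the only member called. In AMO1 replicates with the same letter deviated together, and with the letter as a block 9 members were called, against 6.08% of all genes (3.38% higher and 2.69% lower): INSIG1, INSIG2, IDI1, FDFT1, ACACA, SCD, STARD4 and LPIN1 higher and MVD lower. With the block and gene span as an offset 6 remained, without INSIG1, ACACA and LPIN1. Over all alternatives the AMO1 log2 fold change ran from 0.20 to 0.36 for INSIG1, -0.34 to -0.11 for MVD, 0.14 to 0.23 for IDI1, 0.12 to 0.23 for FDFT1, 0.065 to 0.19 for ACACA, 0.074 to 0.22 for SCD, 0.15 to 0.27 for STARD4 and 0.098 to 0.18 for LPIN1. The adjusted p of these 8 members reached 0.301, 0.68, 0.543, 0.561, 0.652, 0.739, 0.6 and 0.439 in the same order (edgeR, DESeq2 or limma-voom). Without SCR replicate A or gN1E replicate A the AMO1 count was 2. In H929 it was 2 without SCR replicate A or gN1E replicate B and 3 without gN1E replicate C. In LP1 it was 0 without SCR replicate A, gN1E replicate B or gN1E replicate D, and 1 without SCR replicate B or gN1E replicate A. The counts over all genes moved too: leaving out single libraries gave 254 to 606 in AMO1 (473 with all), 701 to 1272 in H929 (1286) and 87 to 780 in LP1 (332), lowest in LP1 without SCR replicate B and highest without SCR replicate D. The balance of directions depended on scaling as well: among all genes TMM gave 377 higher and 96 lower in AMO1, 870 and 416 in H929 and 152 and 180 in LP1, where library size alone gave 309 and 295, 556 and 743, and 229 and 130. Under library size alone the H929 members called were 1 higher (ACACA) and 5 lower (IDI1, SQLE, MSMO1, SC5D and FADS1), in place of 3 higher and 2 lower.

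**Figure D2:**
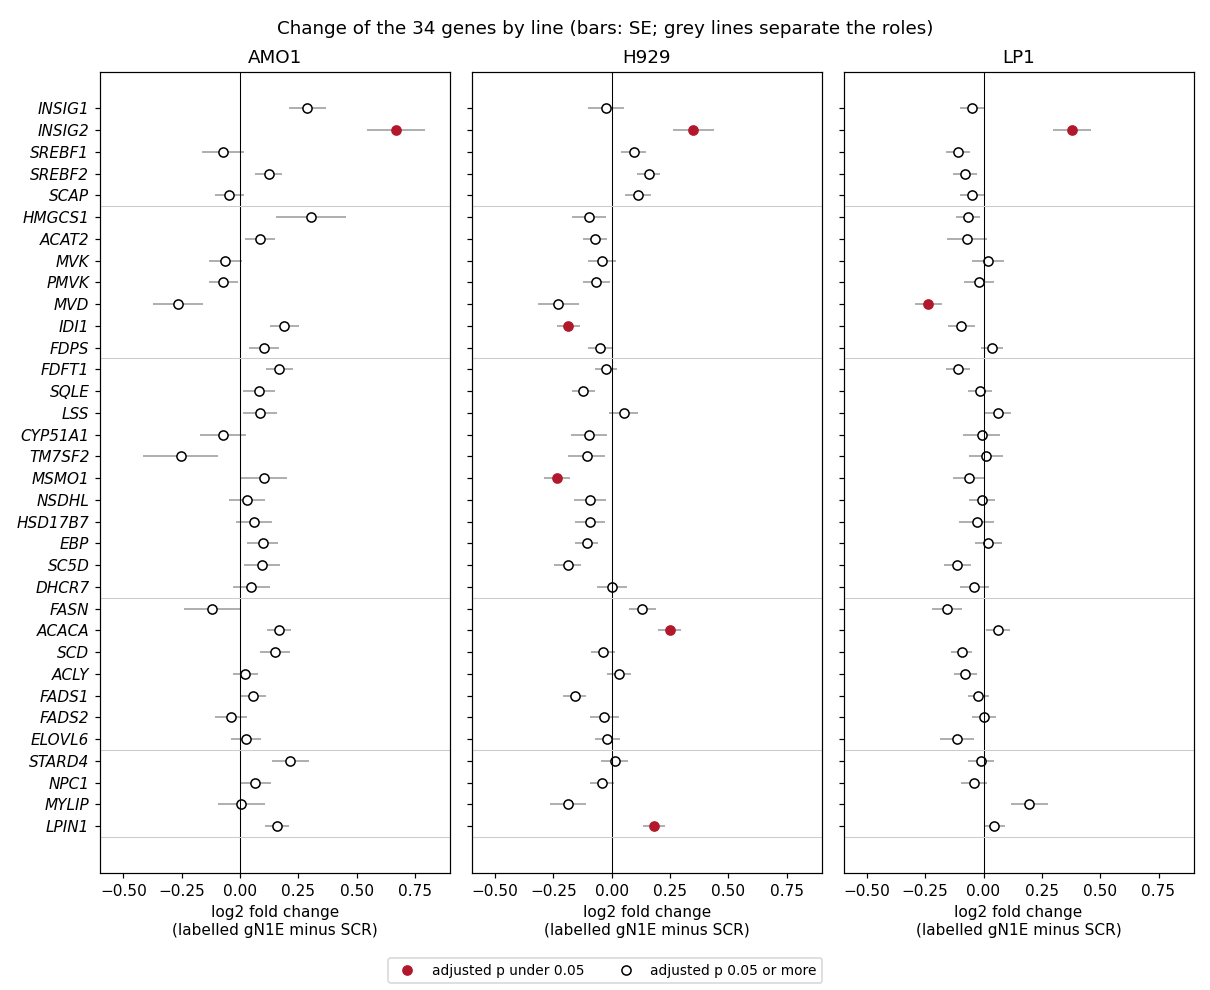
Log2 fold change (gN1E label minus SCR label) of the 34 genes in AMO1, H929 and LP1, ordered by role, with the standard error of the edgeR fit as bars and called genes marked. INSIG2 is the rightmost gene in each panel, at 0.67, 0.35 and 0.38, and MVD is left of 0 in all 3, at -0.27, -0.23 and -0.24.

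INSIG2 was then set against the 25 enzymes of the mevalonate, sterol and fatty acid branches. The enzymes had median log2 fold changes of 0.060 in AMO1, -0.072 in H929 and -0.030 in LP1, beside -0.016, -0.0096 and -0.0012 over all genes tested. In AMO1, 18 enzymes lay above 0 and 7 below; in H929, 5 above and 20 below; in LP1, 7 above and 18 below. These splits depended on scaling: library size alone, which shifted the median of all genes by -0.038, -0.046 and 0.028, gave 15 above and 10 below in AMO1, 3 and 22 in H929 and 12 and 13 in LP1. So where INSIG2 was higher by 0.35 to 0.67, the enzymes as a group lay close to 0, and the side of 0 on which most of them lay was not shared by the lines. The mean log2 CPM of the 25 enzymes, scaled over all libraries, was 6.75, 6.59 and 6.52 in SCR libraries A, C and D of AMO1 and 6.64, 6.69 and 6.64 in the gN1E libraries. In H929 it was 6.93, 6.94 and 6.80 in SCR libraries A, B and C and 6.81, 6.84 and 6.88 in the gN1E libraries, and in LP1 it was 6.34, 6.30 and 6.24 in SCR libraries A, B and D and 6.26, 6.26 and 6.16 in the gN1E libraries. For this mean over 25 enzymes the labels overlapped in all 3 lines. Within the letters of AMO1 the mean was lower in gN1E for A and higher for C and D. It pools enzymes that lay on both sides of 0, so its overlap does not show whether single enzymes changed. By branch, the mean of the 7 mevalonate enzymes was apart in LP1, at 5.89, 5.91 and 5.89 in SCR libraries A, B and D and 5.82, 5.87 and 5.74 in the gN1E libraries; in the other lines, and for the sterol and fatty acid branches, the labels overlapped.

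**Figure D3:**
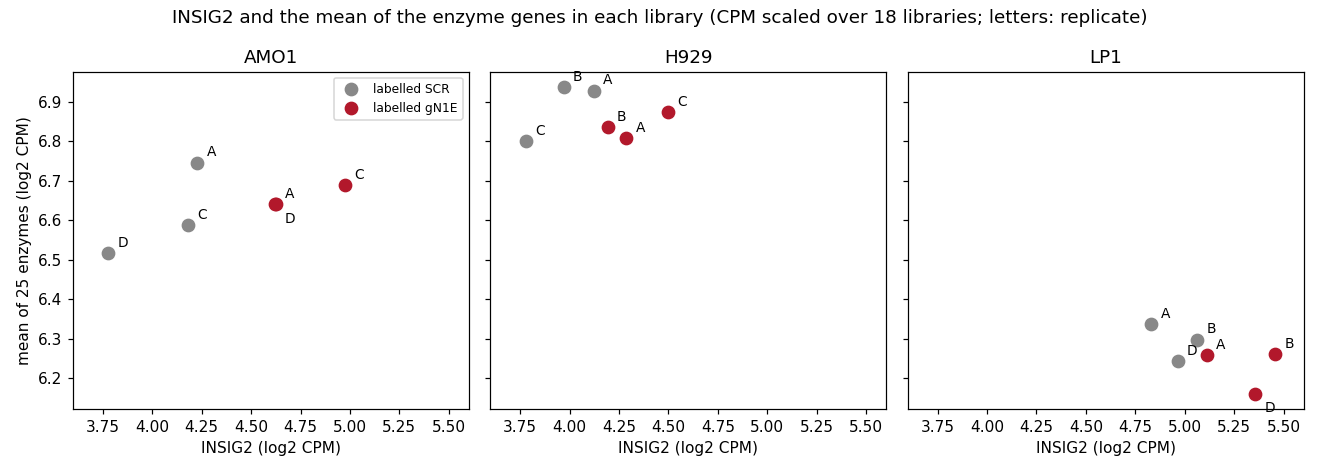
INSIG2 level (x axis, log2 CPM) and the mean log2 CPM of the 25 enzyme genes (y axis) in each library, scaled over all 18 libraries, with letters for the replicate. In each panel the gN1E libraries lie to the right of the SCR libraries, while on the y axis the labels overlap.

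Among the mevalonate enzymes, MVD and IDI1 were the members with called changes. MVD (ENSG00000167508.12, chr16:88651935-88663161, minus strand) decarboxylates mevalonate diphosphate to the isoprene unit. In LP1 it was at 39.2, 40.7 and 36.5 CPM in SCR libraries A, B and D and 32.9, 34.1 and 31.8 CPM in the gN1E libraries, in AMO1 at 51.1, 38.0 and 38.5 CPM in SCR libraries A, C and D and 36.1, 37.2 and 32.7 CPM in the gN1E libraries, and in H929 at 71.3, 62.0 and 55.8 CPM in SCR libraries A, B and C and 52.8, 50.2 and 58.6 CPM in the gN1E libraries. The labels were apart in LP1 and AMO1, where SCR library A was the high one, and overlapped in H929 through libraries C. MVD had a log2 fold change of -0.24 in LP1 (SE 0.0577, edgeR adjusted p = 0.0401), -0.27 in AMO1 (SE 0.106, edgeR adjusted p = 0.322; 0.00997 with the replicate block) and -0.23 in H929 (SE 0.0860, edgeR adjusted p = 0.183). MVD had the lowest log2 fold change of the 34 members in AMO1 and LP1 and the second lowest in H929. Over all alternatives its AMO1 value ran from -0.34 to -0.11 (edgeR, DESeq2 or limma-voom adjusted p up to 0.68). The LP1 call was lost without SCR replicate A (edgeR adjusted p = 0.161), SCR replicate B (0.272), gN1E replicate A (0.132), gN1E replicate B (0.0811) or gN1E replicate D (0.138), with limma-voom (0.0776), with library size alone (0.0752) and with the replicate block (0.054; 0.0784 with gene span as an offset too), over a range of 0.00781 to 0.272.

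IDI1 (ENSG00000067064.13, chr10:1039152-1049119, minus strand), the isomerase of that isoprene unit, was at 112, 112 and 109 CPM in SCR libraries A, B and C of H929 and 101, 96.3 and 96.4 CPM in the gN1E libraries. In AMO1 it was at 83.1, 81.5 and 72.9 CPM in SCR libraries A, C and D and 85.3, 94.0 and 91.9 CPM in the gN1E libraries. The labels were apart in both lines, with gN1E the lower label in H929 and the higher in AMO1. IDI1 had a log2 fold change of -0.19 in H929 (SE 0.0478, edgeR adjusted p = 0.0174) and 0.19 in AMO1 (SE 0.0639, edgeR adjusted p = 0.176; 0.0166 with the replicate block). The H929 call was lost without SCR replicate A (edgeR adjusted p = 0.0966), SCR replicate B (0.06), gN1E replicate B (0.102) or gN1E replicate C (0.0629), over a range of 0.00275 to 0.102.

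HMGCS1 had a log2 fold change of 0.30 in AMO1, but its libraries spread widely, at 559, 528 and 403 CPM for SCR libraries A, C and D and 538, 676 and 626 CPM for gN1E (SE 0.151, edgeR adjusted p = 0.510). Its ratio between libraries of the same letter was -0.054 for A, 0.36 for C and 0.63 for D on the log2 scale. ACAT2, MVK (mevalonate kinase), PMVK and FDPS (farnesyl diphosphate synthase) were not called in any line, with log2 fold changes between -0.072 and 0.10. Among the 7 mevalonate enzymes, 7 of 7 lay below 0 in H929, 5 in LP1 and 3 in AMO1.

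Of the 11 sterol enzymes, MSMO1 was the one called, in H929. MSMO1 (ENSG00000052802.13, chr4:165327667-165343164, plus strand), the methylsterol monooxygenase, was at 128, 127 and 115 CPM in SCR libraries A, B and C and 103, 98.2 and 113 CPM in the gN1E libraries. The labels did not overlap, but libraries C of the labels lay close together. The log2 fold change was -0.24 (SE 0.0558, edgeR adjusted p = 0.0101), and the call was lost without SCR replicate A (edgeR adjusted p = 0.0959) or gN1E replicate B (0.114) and with the replicate block (0.0526; 0.05 with gene span as an offset too), over a range of 0.000406 to 0.114. In AMO1 and LP1 its log2 fold changes were 0.10 and -0.064. FDFT1 was at 227, 212 and 196 CPM in the SCR libraries A, C and D of AMO1 and 235, 243 and 235 CPM in the gN1E libraries, without overlap (log2 fold change 0.17, SE 0.0575, edgeR adjusted p = 0.191; 0.0142 with the replicate block). In LP1 FDFT1 was the reverse, at 78.0, 73.7 and 73.1 CPM in SCR and 68.8, 72.3 and 67.2 CPM in gN1E libraries (log2 fold change -0.11, edgeR adjusted p = 0.357). SQLE, SC5D (sterol desaturase) and EBP (sterol isomerase) had gN1E libraries below SCR libraries without overlap in H929, with log2 fold changes of -0.12, -0.19 and -0.11 that were not called. LSS (lanosterol synthase), CYP51A1 (lanosterol demethylase), TM7SF2 (sterol reductase), NSDHL, HSD17B7 and DHCR7 (the last reductase of a cholesterol route) lay between -0.25 and 0.084 in the 3 lines. Counts of CYP51A1 and EBP are uncertain, since 68.2% and 36.4% of their exon bases are shared with other annotated genes on the same strand.

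Among the fatty acid enzymes, ACACA (ENSG00000278540.5, chr17:37084992-37406836, minus strand), the acetyl-CoA carboxylase that commits carbon to fatty acids, was higher in gN1E in H929. It was at 249, 265 and 260.4 CPM in SCR libraries A, B and C and 302, 324 and 292 CPM in the gN1E libraries, with a clear gap between the labels. The log2 fold change was 0.25 (SE 0.0489, 1.19-fold, edgeR adjusted p = 0.00156). The call held without each library in turn, but was lost with gene span as an offset (0.16, edgeR adjusted p = 0.0594; 0.0828 with the replicate block too), over a range of 1.63e-05 to 0.0828; ACACA spans 321845 bases. In AMO1 ACACA was at 242, 241 and 235 CPM in SCR and 274, 270.3 and 261 CPM in gN1E libraries, also without overlap. Its AMO1 log2 fold change was 0.17 (edgeR adjusted p = 0.115, or 0.0103 with the replicate block). With the block and gene span as an offset it was not called in AMO1. Over all alternatives the AMO1 value ran from 0.065 to 0.19 (edgeR, DESeq2 or limma-voom adjusted p up to 0.652). In LP1 the log2 fold change was 0.062. SCD was at 1010.4, 945 and 828 CPM in SCR libraries A, C and D of AMO1 and 1019.9, 1080.0 and 985 CPM in gN1E (0.15, edgeR adjusted p = 0.360; 0.0274 with the replicate block), and at 866, 833 and 807 CPM in SCR libraries A, B and D of LP1 and 796, 778 and 773 CPM in gN1E (-0.094, edgeR adjusted p = 0.399). Over all alternatives the AMO1 value of SCD ran from 0.074 to 0.22 (edgeR, DESeq2 or limma-voom adjusted p up to 0.739). FASN had log2 fold changes of -0.12, 0.13 and -0.15 in AMO1, H929 and LP1, with overlapping labels. ACLY, which makes cytosolic acetyl-CoA from citrate, the elongase ELOVL6, FADS1 and FADS2 lay between -0.16 and 0.054; FADS1 in H929 had the lowest value, with labels apart (edgeR adjusted p = 0.057).

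In the last group, LPIN1 (ENSG00000134324.12, chr2:11677595-11827409, plus strand), a phosphatidic acid phosphatase, was called higher in H929, at 222, 219 and 209 CPM in SCR libraries A, B and C and 238, 246 and 252 CPM in the gN1E libraries. The labels were apart there and in AMO1, at 264, 257 and 248 CPM in SCR and 283, 291 and 284 CPM in gN1E libraries. LPIN1 had a log2 fold change of 0.18 in H929 (SE 0.0469, edgeR adjusted p = 0.0191) and 0.16 in AMO1 (SE 0.0510, edgeR adjusted p = 0.153, or 0.0181 with the replicate block). With the block and gene span as an offset it was not called in AMO1. Over all alternatives the AMO1 value ran from 0.098 to 0.18 (edgeR, DESeq2 or limma-voom adjusted p up to 0.439). The H929 call was lost without SCR replicate A (edgeR adjusted p = 0.0548), SCR replicate C (0.0666), gN1E replicate B (0.0772) or gN1E replicate C (0.0811), with gene span as an offset (0.073; 0.131 with the replicate block too) and with library size alone (0.105), over a range of 0.00364 to 0.131. STARD4, a cytosolic sterol carrier, was at 29.7, 31.3 and 27.0 CPM in SCR libraries A, C and D of AMO1 and 31.5, 37.4 and 33.5 CPM in gN1E (0.22, edgeR adjusted p = 0.231; 0.0307 with the replicate block). NPC1, which exports cholesterol from lysosomes, lay between -0.043 and 0.066. MYLIP, a ubiquitin ligase acting on lipoprotein receptors, was lower in all gN1E libraries than in all SCR libraries of H929 (-0.19, edgeR adjusted p = 0.190), and had 0.20 in LP1 (edgeR adjusted p = 0.266).

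Labels that did not overlap were also counted over all members. In AMO1, 7 members had all gN1E libraries above all SCR libraries and 1 had them below, against 9.48% and 8.29% of all genes. In H929 the counts were 4 above and 8 below, against 11.3% and 10.7%, and in LP1 1 above and 3 below, against 9.14% and 8.93%. INSIG2 was the only member above in all 3 lines, and none was below in all 3.

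**Figure D4:**
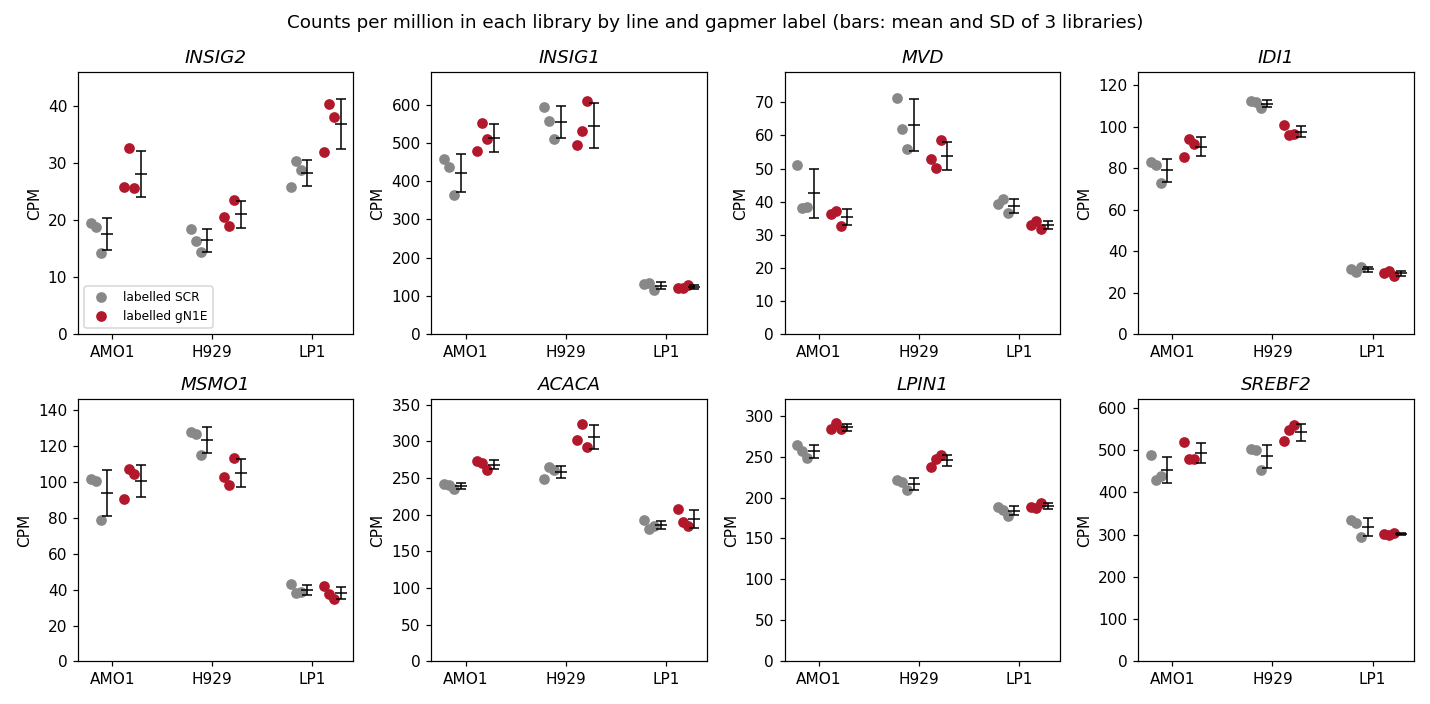
CPM in each library for members with a called change or a change near it, by line and label, with 1 point per library and bars for mean and SD. INSIG2 is the only gene shown whose gN1E points lie above all SCR points in the 3 lines.

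Whether the change itself differed between lines was tested in the joint edgeR fit. For 0 of 34 members did it differ between AMO1 and H929 (0% of 26436 genes), AMO1 and LP1 (0.741%) or H929 and LP1 (0.874%). At an unadjusted p under 0.05 there were 10, 8 and 5 members, against 1771, 2820 and 2664 of all genes. DESeq2 called 1, 2 and 0 members, against 5, 521 and 383 of all genes. With limma-voom the members were 0, 0 and 0, against 0, 169 and 186 of all genes. The change in INSIG2 was larger in AMO1 than in H929 by 0.30 (SE 0.196, edgeR adjusted p = 0.829) and than in LP1 by 0.31 (SE 0.191, edgeR adjusted p = 0.616), neither of them called. IDI1 had the lowest p between AMO1 and H929, with a difference of 0.36 (SE 0.0776, edgeR adjusted p = 0.319), which was called by DESeq2 (adjusted p = 0.0114) and by edgeR with no filter (adjusted p = 0.0409). Between AMO1 and LP1, FDFT1 differed by 0.30 (SE 0.0759, edgeR adjusted p = 0.0543) and IDI1 by 0.30 (SE 0.0797, edgeR adjusted p = 0.0645). DESeq2 called both (adjusted p = 0.00894 and 0.00906). With no filter edgeR called INSIG1 (0.34, adjusted p = 0.011) and FDFT1 (adjusted p = 0.0498). FDFT1 was also called with the replicate block (edgeR adjusted p = 0.0384) and without SCR replicate A of AMO1 (0.0145), SCR replicate D of LP1 (0.0446) or SCR replicate C of H929 (0.0465), and IDI1 without SCR replicate A (0.0389) or gN1E replicate A (0.0431) of AMO1; without SCR replicate A of AMO1, SCD was the third member called (0.33, edgeR adjusted p = 0.0375). SREBF2 differed between H929 and LP1 by 0.27 (SE 0.0808, edgeR adjusted p = 0.124), and was called with no filter (0.0327), with the replicate block (0.047) and without SCR replicate D of LP1 (0.0251). Library size scaling shifted the median of all genes by -0.11 in the comparison of H929 with LP1 and again called 0 members.

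A wider set of 71 genes around the pathway was counted in 6 lists. Of these, 2 of 65 tested were called in AMO1, 6 of 68 in H929 and 0 of 69 in LP1, against 2.06%, 5.47% and 1.43% of all genes. Among all genes, 2803 of 22933, 4156 of 23499 and 3018 of 23165 had an unadjusted p under 0.05 in these lines. In LP1, 4 of the 69 had such a p. There DESeq2 called 1 and limma-voom 0, against 512 and 262 of all genes. The isoprenoid branch (11 genes) had 1, 2 and 0 called genes in AMO1, H929 and LP1, fatty acid elongation, desaturation and activation (18 genes) had 0, 2 and 0, and sterol transport, storage and LXR (17 genes) had 1, 2 and 0. SREBP processing and sterol-regulated degradation (10 genes), other SREBP targets (7 genes) and lipin paralogues and glycerolipid enzymes (8 genes) had 0 called genes in each line by edgeR, with 1, 3 and 0, 2, 0 and 0, and 0, 0 and 1 genes at an unadjusted p under 0.05; limma-voom called 0 of them, and DESeq2 called 1, among the other SREBP targets in AMO1. Over the 65, 68 and 69 genes tested the log2 fold changes had medians of 0.034, -0.0037 and -0.031. Next to the members, PDSS1, a subunit of the synthase for the coenzyme Q side chain, was higher in gN1E in AMO1 (0.47, edgeR adjusted p = 0.00115) and H929 (0.53, edgeR adjusted p = 9.04e-07), and had 0.27 in LP1 (edgeR adjusted p = 0.0586), where DESeq2 and some other settings called it. ABCA1, the cholesterol exporter driven by LXR, was lower in gN1E in AMO1 (-0.43, edgeR adjusted p = 0.0128) and H929 (-0.41, edgeR adjusted p = 0.00163), and had -0.028 in LP1 (edgeR adjusted p = 0.847); the AMO1 call was lost without SCR replicate D, gN1E replicate C or gN1E replicate D. The other called genes were LPCAT3, a phospholipid acyltransferase, higher in H929 (0.37, edgeR adjusted p = 0.000401), and RABGGTB (-0.18, edgeR adjusted p = 0.0171), ELOVL7 (-0.29, edgeR adjusted p = 0.0492) and HSD17B12 (-0.16, edgeR adjusted p = 0.0468), lower in H929. The ELOVL7 and HSD17B12 calls were lost with the replicate block (edgeR adjusted p = 0.0847 and 0.0892), with limma-voom and without each H929 library in turn, and the RABGGTB call without SCR replicate B, gN1E replicate B or gN1E replicate C.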

How the data were processed

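Total RNA libraries of 3 myeloma lines with 3 libraries per line and gapmer label were analysed. The deposited values are whole-number counts of reads per gene, made by the authors with STAR 2.7.10a and featureCounts 1.6.4 on hg38 (GENCODE v43), per the submitters' processing notes and the table headers. The 34 members and the wider lists were chosen with earlier results of these data known. Groups followed the GEO labels. In each line, genes that reached 10 reads in 1 or more of 6 libraries were scaled by TMM and tested with edgeR 4.0.16 (robust quasi-likelihood fit, gapmer label as the only term) in R 4.3.3, with Benjamini-Hochberg adjustment over all genes tested and a threshold of 0.05. Differences between lines in change and in level came from 1 fit of 18 libraries with 6 groups; a level call also needed 2-fold. CPM per kb used the exon length in the tables. The fits were first tested on simulated data. Named genes are NEAT1, all members, and genes of the wider lists past the threshold in a line at an average log2 CPM of at least 2; cell type markers are named only for the check of identity. The alternatives were RLE size factors, library size only, DESeq2 1.42.0, limma-voom (limma 3.58.1), no filter, a mean CPM of at least 1, the replicate letter as a block, gene span as an offset (alone and with the block), an adjusted p under 0.1 with 1.5-fold, and leaving out each library; for levels, no fold minimum and each label alone. Libraries of AMO1 that share a letter in the labels deviated together from their group means (correlation over genes 0.198 for A, 0.16 for C and 0.121 for D), so the blocked value stands beside AMO1 results whose call it changes.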

Additional observations from a re-analysis of the deposited data

How the results depend on the processing

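No result turned direction while called. The count of called members in AMO1 (1) was 3 with DESeq2, 3 with no filter, 9 with the replicate block and 6 with the block and gene span offset, and 1 to 2 without each library. In H929 (5) it was 8 with no filter, 3 with the replicate block, 3 with the span offset, 1 with both, and 0 at an adjusted p under 0.1 with 1.5-fold; without each library it was 2 to 7. In LP1 (2) it was 1 with library size only, limma-voom, the CPM minimum, the replicate block, the span offset or both, 0 with 1.5-fold, and 0 to 2 without each library. INSIG2 in H929 was no longer called at 0.31 (library size only, edgeR adjusted p = 0.0576), 0.35 (replicate block, 0.072), 0.36 (block and span offset, 0.0659) and 0.35 (1.5-fold minimum), and in LP1 at 0.38 (CPM minimum, 0.0529), 0.39 (span offset, 0.052) and 0.38 (1.5-fold minimum). Without each library it was 0.54 to 0.75 in AMO1, 0.26 to 0.44 in H929 and 0.31 to 0.48 in LP1. Members whose change differed numbered 0 in each pair. AMO1 and H929 gave 1 with DESeq2 and 1 with no filter (0 to 0 without each library). AMO1 and LP1 gave 2 with DESeq2, 2 with no filter and 1 with the block (0 to 3). H929 and LP1 gave 1 with no filter and 1 with the block (0 to 1). Over all genes in these pairs, no filter gave 48, 265 and 368 of 43774, and the block 0, 234 and 361 of 26436. With no fold minimum, level differences numbered 25, 29 and 34 members, against 11731, 20054 and 19732 of 26436 genes. With the 2-fold minimum, AMO1 against H929 gave 1 member in libraries labelled gN1E. Without each library the 2-fold counts were 0 to 1, 13 to 13 and 14 to 15 members. In H929 libraries with the same letter did not deviate together (correlations -0.00209, -0.0686 and -0.0942). In LP1 letter A had 0.177, above C and D of AMO1 (0.16 and 0.121), while B and D had 0.00724 and -0.0601. Whether letters mark pairs in any line was not tested. The block took all-gene calls from 1286 to 931 in H929 and from 332 to 243 in LP1, and the blocked LP1 value of INSIG2 was 0.38 (edgeR adjusted p = 0.00646). Over all genes, no filter gave 808 calls of 36147 in AMO1, 1629 of 37849 in H929 and 700 of 38002 in LP1, against 473, 1286 and 332 with the filter. DESeq2 gave 619 in AMO1 and 512 in LP1, and the block 1394 in AMO1. The span offset alone gave 1222 in H929 and 303 in LP1. In LP1, library size only gave 359, limma-voom 262 and the CPM minimum 272 of 14548. The block and span offset gave 1195 in AMO1, 851 in H929 and 162 in LP1, and the 1.5-fold rule 176, 369 and 102. The cause of these moves was not tested; the 1.5-fold setting changed the p threshold and the fold minimum together. With 3 libraries a label, log2 changes near 0.2 were called for some members and not for others. IDI1 in H929 was called (SE 0.0478) and STARD4 in AMO1 was not (SE 0.0790). These came from different lines, where the adjusted p also depends on the other genes tested, and what set the calls apart was not tested.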
